A study of Mus musculus with 6 samples.

Results

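The genes of the cytosolic ribosome, the particle that makes all proteins encoded in the nucleus, were compared between starry-sky tumor-associated macrophages (SS-TAMs) and germinal center macrophages (GCMs). The 59 ribosomal protein genes described here are those with a standard symbol (Rpl or Rps and a number, Rplp0 to Rplp2, and Rpsa) for which the platform annotation holds at least 1 probe set that names no other gene. They comprise 37 genes of the large (60S) and 22 of the small (40S) subunit, among 19938 genes tested. The rule itself uses no measured difference between the groups, but the genes were chosen with earlier results of these data known. Each gene is represented by the probe set with the highest mean log2 value over the 6 arrays, out of 215 such probe sets for these genes. Of a list of 79 canonical mammalian ribosomal protein genes, 53 are among the 59, and the other 6 are paralogues (Rpl3l, Rpl10l, Rpl32l, Rpl39l, Rps4l and Rps27l). Of the 26 canonical genes outside the rule, 16 were seen only through probe sets that also name other genes, and these are given separately.

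SS-TAMs, recognized by CD68 staining, were captured by laser from tumors that the human Burkitt's lymphoma line BL2 had formed under the skin of female BALB/c SCID mice by the time the tumors measured 1.44 cm2. SCID mice are without mature lymphocytes of the T and B lineages. GCMs were captured from splenic germinal centers of female BALB/c mice that carry a CSF1R EGFP transgene, in which the macrophage growth factor receptor promoter drives a green fluorescent protein, after immunization with sheep red blood cells in 2 doses. For these samples the labels disagree on the organ, with spleen as the tissue and lymph nodes in the source name. All mice were 6 to 12 weeks old, 1000 cells were taken from each, and each of the 3 arrays of a group is a separate mouse. Tumor of human cells and mouse spleen, SCID and immunocompetent host, and the manner of finding the macrophages differ together between the groups and cannot be told apart. How far RNA of neighboring or ingested cells, human in the tumors and mouse in the spleen, was read by the mouse arrays was not tested. The values are intensities on a linear scale. The arrays had medians between 6.1 and 6.5. The top 1% of probe sets began at 241 to 284 in SS-TAMs but at 614 to 664 in GCMs, so the upper end of the whole scale was lower in SS-TAMs.

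Ribosomal proteins are made in near-equal amounts and assembled with ribosomal RNA in the nucleolus. Their mRNAs are among the most abundant of a growing cell, and nearly all begin with a terminal oligopyrimidine (TOP) tract, a C at the cap followed by a run of C and U, through which the mTORC1 kinase and the repressor LARP1 regulate their translation. Proteins that are made in excess are degraded, and some free ribosomal proteins, such as Rpl5 and Rpl11, bind Mdm2 and so stabilize p53. In germinal centers, tingible-body macrophages ingest dying B cells, and SS-TAMs take the same position among the cells of Burkitt's lymphoma.

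The annotated starts of some of these genes show the TOP tract directly. The windows below run 5′ to 3′ on the gene's own strand, with 20 bases before the annotated start and 10 from it, taken from RefSeq on mouse build GRCm38.p6. Capitals mark a run of at least 5 pyrimidines that touches the start. Among genes not shown, Rpl34, which did not pass (log2 fold change 0.0016), has a run of 20 at an annotated start. The first 6 genes below are examples picked from those with such a run. All 6 were lower, as were 48 of all 59 genes. The last 3 do not have such a run at the annotated start. They are Rps13 and Rplp0, with the lowest ratios of SS-TAM to GCM, and Rpl41, the only gene that was higher.
Rps10, chr17:27635235-27635264, minus strand: acgctgcgccgcgcacgCCCCTTCCTTTCC
Rplp2, chr7:141447631-141447660, plus strand: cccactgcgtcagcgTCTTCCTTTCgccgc
Rps6, chr4:86857358-86857387, minus strand: gggttaagcggaagtcgggCCTCTTTTTCg
Rps18, chr17:33955656-33955685, minus strand: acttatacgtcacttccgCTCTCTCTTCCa
Rpl28, chr7:4792945-4792974, plus strand: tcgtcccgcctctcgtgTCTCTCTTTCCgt
Rpl38, chr11:114668560-114668589, plus strand: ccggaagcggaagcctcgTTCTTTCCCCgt
Rps13, chr7:116334181-116334210, minus strand: cgcgcgagagcaaacgtcggtgagtggcgt
Rplp0, chr5:115559447-115559476, plus strand: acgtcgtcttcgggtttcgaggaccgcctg
Rpl41, chr10:128549159-128549188, minus strand: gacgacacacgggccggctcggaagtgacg

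Promoters of 47 of the 59 genes were matched by symbol in the RefSeq table. Of these, 10 (21.3%) had a C at an annotated start followed by at least 4 pyrimidines, against 3.01% of all 27025 symbols with a promoter. A run of at least 8 pyrimidines between 25 bases before and 50 bases after the start was found for 36 (76.6%), against 30.4% of all symbols. The heptamer CCGGAAG, which holds the core that ETS family factors recognize, was present on either strand of the 300 bases around the start (250 before, 50 from it) for 18 genes (38.3%), against 9.93% of all. Its reverse complement CTTCCGG opens with pyrimidines and can overlap such a run. TATAAA, the TATA box hexamer, was present for 6 (12.8%), against 15.7% of all. The median log2 fold change was -1.90 for genes with the C and pyrimidines at the start and -1.70 for those without, and the ranges overlapped (-2.67 to -1.18 and -3.24 to 0.43). An annotated start can lie some bases from the start used in these cells, so a missing match describes only the window searched.

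Ribosomal protein mRNA was lower in SS-TAMs than in GCMs for most of these genes. By limma, with Benjamini-Hochberg adjustment over all genes and a threshold of 0.05, 48 of the 59 were lower, 1 was higher and 10 did not pass. Among all genes tested, 4.74% were lower and 5.16% higher. Lower calls were more frequent among genes with high intensity in general: of 348 other genes with a mean of 100 or more over the 6 arrays, 39.9% were lower and 16.1% higher. Of the 46 ribosomal protein genes with such a mean, 43 were lower and 1 was higher. That mean holds the compared values themselves, so a gene can reach 100 through its GCM arrays alone. Rpl26 is an example, with a mean of 45.7 in SS-TAMs and 330 in GCMs. The same limit holds for the 348 other genes, so neither share is independent of the difference between the groups. The median log2 fold change (SS-TAM minus GCM) was -1.73 over the 59 genes, 0.041 over all genes and -0.47 over the other genes of high intensity. Fold reductions of the 48 genes ran from 2.17 (Rpl23) to 9.48 (Rps13), and 19 of them were 4-fold or more. The SS-TAM and GCM arrays did not overlap for 52 of the 59 genes, 50 with all SS-TAM values below all GCM values, where 30.1% of all genes showed no overlap in either direction. Both subunits contributed, with 28 of 37 large subunit genes lower (median log2 fold change -1.70) and 20 of 22 small subunit genes lower (median -1.84).

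**Figure D1:**
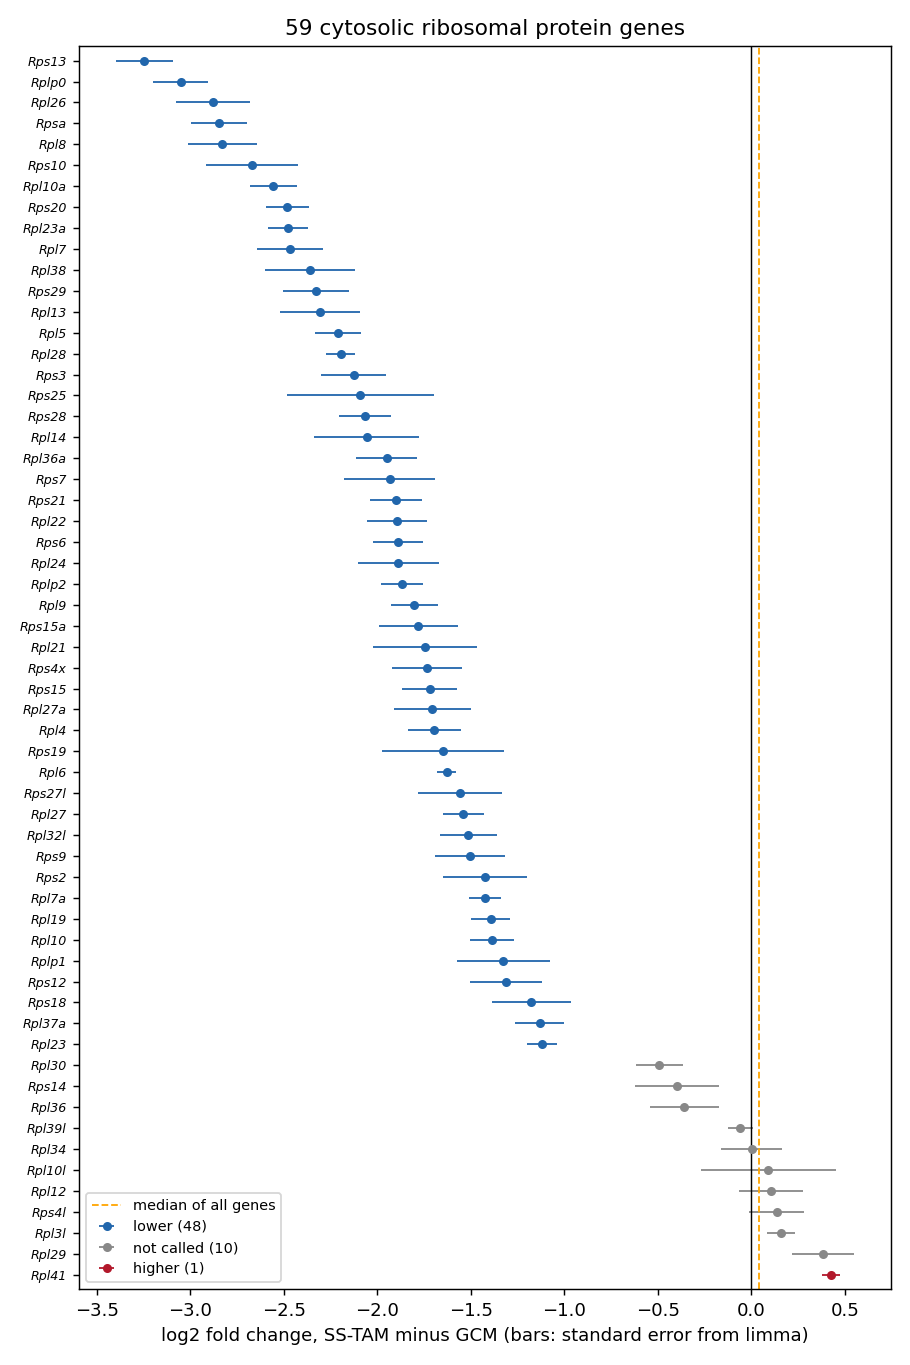
Log2 fold change (SS-TAM minus GCM, horizontal axis) of each of the 59 ribosomal protein genes, with bars for the standard error from limma, 3 arrays per group, and a dashed line at the median of all genes. The 48 lower genes lie between -3.24 and -1.12, 10 genes that did not pass lie between -0.49 and 0.38, and Rpl41 is at 0.43.

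Levels on the single arrays showed the same. Over the 59 genes the geometric mean intensity was 93.7, 105 and 117 on SS-TAM replicates 1, 2 and 3, and 297, 332 and 320 on GCM replicates 1, 2 and 3. Every SS-TAM array was thus below every GCM array, while the median of all genes was 6.6 to 6.7 in SS-TAMs and 6.3 to 6.4 in GCMs. Replicates of SS-TAMs differed more from each other than those of GCMs. The median SD of log2 values within a group was 0.26 for ribosomal protein genes in SS-TAMs and 0.13 in GCMs, against 0.14 and 0.066 over all genes. SS-TAM replicate 1 was the lowest of its group for 37 of the 59 genes and SS-TAM replicate 3 the highest for 32. Among GCMs, replicate 1 was the lowest for 35 genes and replicate 2 the highest for 30. In these captured samples, fewer cells of a type that holds more ribosomal protein mRNA and less such mRNA per cell cannot be told apart.

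Small subunit genes outside the head included the one with the lowest ratio. Rps13, a protein that contacts the large subunit across the interface, was at 66.4, 52.4 and 68 on SS-TAM arrays and 492.9, 656.3 and 622.3 on GCM arrays. That is the lowest ratio of the 59 genes, 9.48-fold lower in SS-TAMs (log2 fold change -3.24, SE 0.151, adjusted p = 0.000687), and the groups lay far apart. Rpsa, which is needed to assemble the small subunit and is also known as the laminin receptor precursor, was at 127.5, 108.6 and 126.1 on SS-TAM arrays against 723.7, 855 and 1045.7 on GCM arrays. It was 7.18-fold lower (log2 fold change -2.84, SE 0.148, adjusted p = 0.000852), with all SS-TAM values below all GCM values. Rps6, the classical substrate of S6 kinases, was at 326.7, 332.5 and 452.1 against 1377.8, 1362.8 and 1332.7, which is 3.71-fold lower (adjusted p = 0.00152). The GCM values of Rps6 lay close together, and SS-TAM replicate 3 was the highest of its group. Rps7, Rps21, Rps15a, Rps4x, Rps9 and Rps2 were lower too, with log2 fold changes of -1.93, -1.90, -1.78, -1.73, -1.50 and -1.42 in that order. Rps2 and Rps9 sit at the entry of the mRNA channel, and Rps7 is another ribosomal protein that binds Mdm2.

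In the head of the small subunit, which turns against the body as mRNA and tRNA move through the ribosome, all 10 measured genes of a list of 13 were lower, with a median log2 fold change of -2.08. Beside this, 20 of all 22 small subunit genes were lower. Rps10 was at 66.2, 85.6 and 128.1 on SS-TAM arrays and 506.7, 635.5 and 578.5 on GCM arrays, 6.35-fold lower (log2 fold change -2.67, SE 0.245, adjusted p = 0.00336). SS-TAM replicate 3 stood above the other 2, and still no SS-TAM array reached a GCM array. Rps20 was at 202.1, 158.6 and 197.1 against 957.7, 1119.4 and 1021.7, 5.58-fold lower (log2 fold change -2.48, SE 0.116, adjusted p = 0.000687). Rps3, which faces the incoming mRNA, was at 95.6, 122.5 and 133.2 against 415.7, 538.6 and 577.2, 4.36-fold lower (adjusted p = 0.00237). Both genes had narrow groups that did not meet. The other 7 genes had log2 fold changes of -2.33 (Rps29), -2.09 (Rps25), -2.06 (Rps28), -1.72 (Rps15), -1.65 (Rps19), -1.31 (Rps12) and -1.18 (Rps18). Rps25 is the protein that several viral mRNAs need for entry at an internal site, and Rps19 is the gene most often mutated in Diamond-Blackfan anemia. Quantile normalization of the arrays turned Rps18 to 0.042 (adjusted p = 0.87), and the call of Rps19 or Rps25 was lost when any 1 of 5 arrays was left out.

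The stalk of the large subunit that recruits and activates elongation factors is built from Rplp0 at its base and the acidic proteins Rplp1 and Rplp2, and all 3 genes were lower. Rplp0 was at 68.1, 62.7 and 82.4 on SS-TAM arrays and 503.1, 594.1 and 669.9 on GCM arrays. It was 8.29-fold lower (log2 fold change -3.05, SE 0.145, adjusted p = 0.000710), and no arrays overlapped. Rplp2 was at 15.3, 18.5 and 16.9 against 66.5, 53.7 and 65.1, 3.65-fold lower (log2 fold change -1.87, SE 0.114, adjusted p = 0.00119), with both groups tight. Rplp1 was at 250.8, 351.1 and 357.5 against 583.2, 807.9 and 1051.1, 2.51-fold lower (log2 fold change -1.33, SE 0.249, adjusted p = 0.0285). The GCM values of Rplp1 were widely spread, with the highest on replicate 3, and its call was lost when any single array but GCM replicate 1 was left out (adjusted p up to 0.114), with quantile normalization (log2 fold change -0.17, adjusted p = 0.749) and with array weights (adjusted p = 0.0954). The difference between the 3 stalk genes in fold was not tested. Opposite the P stalk stands the L1 stalk, which escorts spent tRNA out of the ribosome. Its protein Rpl10a was at 85.6, 67.9 and 89.7 on SS-TAM arrays and 431.6, 511.7 and 479.4 on GCM arrays, 5.88-fold lower (log2 fold change -2.56, SE 0.127, adjusted p = 0.000806), again without overlap.

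Of the 5S ribonucleoprotein, which joins 5S RNA with Rpl5 and Rpl11 and inhibits Mdm2 when ribosome assembly fails, only Rpl5 has a probe set of its own. It was at 158.5, 176.8 and 203 on SS-TAM arrays and 750.2, 927.4 and 806.9 on GCM arrays, 4.62-fold lower (log2 fold change -2.21, SE 0.122, adjusted p = 0.000951). All 5 of its probe sets were lower, from -3.91 to -2.03 on the log2 scale. Rpl11 was seen only in 6 probe sets that also name Brf2, and 4 of the 6 were lower (adjusted p = 0.0042 to 0.0371 over all probe sets), with log2 fold changes from -1.89 to -0.71 over the 6. In the one with the highest mean Rpl11 stood at 353.3, 487.2 and 585.4 on SS-TAM arrays against 703.5, 821.5 and 770.6 on GCM arrays, a log2 fold change of -0.71 that did not pass (adjusted p = 0.0682 over all probe sets). In that probe set the Rpl11 groups did not overlap, and SS-TAM replicate 1 was the lowest.

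Genes around the peptide exit tunnel and the catalytic center were lower too. All 5 measured tunnel genes of a list of 9 were lower, with a median log2 fold change of -1.89, beside 28 lower of all 37 large subunit genes. Rpl26, at the tunnel's outer rim and known also to bind p53 mRNA, was at 55.2, 33.8 and 48 on SS-TAM arrays against 291.4, 367 and 332.3 on GCM arrays, 7.35-fold lower (log2 fold change -2.88, SE 0.196, adjusted p = 0.00148). Rpl23a, the docking site of the signal recognition particle, was at 145.2, 153.6 and 180.9 against 881.7, 962.4 and 817.4, 5.56-fold lower (adjusted p = 0.000501). The values of both genes were separate by a wide margin. Rpl22, whose loss in mice stops alpha-beta T cell development, was at 36.7, 27.9 and 41.5 against 117.7, 140.2 and 132.4 (3.72-fold lower), and Rpl4 and Rpl19 had log2 fold changes of -1.70 and -1.39. Rpl8, which lies next to the peptidyl transferase center, was at 79.3, 54.6 and 79.3 on SS-TAM arrays and 437.4, 582.8 and 481.1 on GCM arrays. It was 7.10-fold lower (log2 fold change -2.83, SE 0.184, adjusted p = 0.00135), with the lowest value on SS-TAM replicate 2 and the highest on GCM replicate 2.

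A further 16 canonical large subunit genes were lower, with log2 fold changes from -2.47 (Rpl7) to -1.12 (Rpl23). Rpl38, which in the mouse embryo is needed for translation of Hox mRNAs, was at 124.9, 172.8 and 243 on SS-TAM arrays and 816.1, 966.7 and 896.8 on GCM arrays, 5.13-fold lower (adjusted p = 0.00449). Rpl10, which joins the 60S particle last and completes its catalytic site, was at 211.5, 215.8 and 267.1 against 605.3, 551.8 and 651.4, 2.61-fold lower (adjusted p = 0.00246). Rpl23, where the anti-association factor Eif6 binds, was at 524.8, 507.3 and 572.9 against 1075.4, 1162.8 and 1245.9, 2.17-fold lower (adjusted p = 0.00159). In each of the 3 genes the groups were apart, and for Rpl38 the SS-TAM arrays were spread most widely. With quantile normalization the calls of Rpl10 and Rpl23 were lost, at log2 fold changes of -0.096 (adjusted p = 0.503) and -0.39 (adjusted p = 0.0521). Rpl6 had the smallest standard error of the 48 lower genes, 0.0508 around a log2 fold change of -1.63, with 170.8, 172.6 and 168.1 on SS-TAM arrays and 543.1, 514.9 and 521.8 on GCM arrays, and its call too was lost with quantile normalization (log2 fold change -0.45, adjusted p = 0.0678). Rpl13, Rpl28, Rpl14, Rpl36a, Rpl24, Rpl9, Rpl21, Rpl27a, Rpl27, Rpl7a and Rpl37a were at -2.31, -2.19, -2.05, -1.95, -1.89, -1.80, -1.75, -1.71, -1.54, -1.42 and -1.13 on the log2 scale in that order. Rpl37a reversed to 0.20 (adjusted p = 0.26) under quantile normalization. Of the genes mutated in Diamond-Blackfan anemia, an inherited failure of red cell formation, 7 of a list of 14 have a probe set of their own (Rps7, Rps10, Rps19, Rps28, Rps29, Rpl5 and Rpl26), and all 7 were lower. Beside this, 48 of all 59 ribosomal protein genes were lower.

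**Figure D2:**
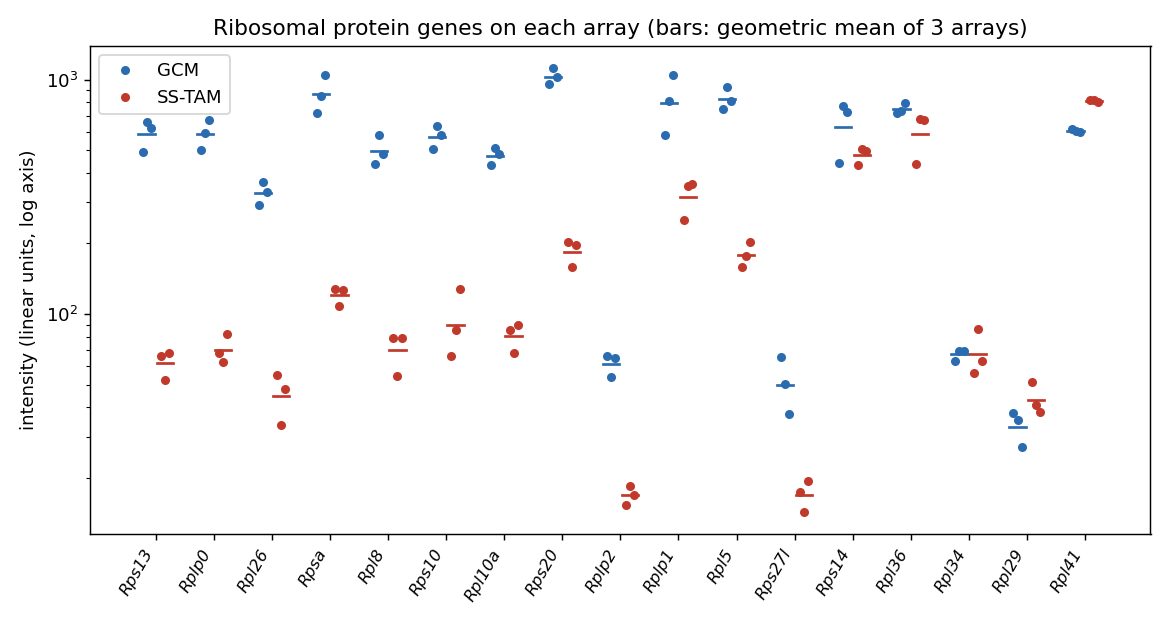
Intensity (log axis, linear units) of 17 ribosomal protein genes on each of the 3 SS-TAM and 3 GCM arrays, with bars at the geometric mean of a group. SS-TAM points lie under GCM points for the 12 genes from Rps13 to Rps27l, mix with or lie near them from Rps14 to Rpl29, and lie above them for Rpl41 (804.6 to 819.8 against 597.4 to 613.8).

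Leaving out 1 array changed the calls of 9 lower genes. Rplp1, Rps18, Rps19 and Rps25 lost their call in 5 of the 6 cases, Rpl21 in 4, Rps12 in 3 (each GCM array), Rps2 in 2 (GCM replicates 2 and 3), and Rpl14 and Rps27l in 1 (GCM replicate 2). Every one kept its direction, and the number of lower genes was 39 without GCM replicate 2 and 41 to 45 without any other single array. All other lower genes lost no call in any of the 6 cases. They include the 8 genes with the lowest log2 fold change (Rps13, Rplp0, Rpl26, Rpsa, Rpl8, Rps10, Rpl10a and Rps20). Those 8 were ranked on the same 6 arrays, so their kept calls are no separate support.

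Rpl41 alone was higher in SS-TAMs, and Rpl41 encodes the smallest ribosomal protein. It was at 819.8, 817.5 and 804.6 on SS-TAM arrays and 613.8, 603.6 and 597.4 on GCM arrays, 1.35-fold higher (log2 fold change 0.43, SE 0.0477, adjusted p = 0.00610), a call that was lost with a trended, robust variance and that turned to -1.04 when arrays were scaled to core macrophage markers, which lowers the log2 fold change of every gene by 1.47. The arrays within each group differed little, and the groups did not overlap. Its 3 probe sets that name Rpl41 only carry identical values on every array and count as 1 measurement. The 2 probe sets that name Rpl41 with other genes were lower, at -1.40 and -1.20 on the log2 scale.

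Of the 10 genes that did not pass, Rps14, Rpl36, Rpl34 and Rpl29 had intensities well above the array median. Rps14, a platform protein whose human gene is lost in the 5q- syndrome, was at 432, 505.3 and 496.8 on SS-TAM arrays and 440.1, 771 and 727.7 on GCM arrays (log2 fold change -0.40, SE 0.224, adjusted p = 0.318). GCM replicate 1 lay among the SS-TAM values, and Rps14 became a lower call without that array. Its other probe set gave 147.2, 148.8 and 130.4 on SS-TAM arrays against 655.6, 1116.9 and 964 on GCM arrays, a log2 fold change of -2.65 (adjusted p = 0.00122 over all probe sets). Rpl36 was at 435.5, 678.8 and 674.5 against 720.3, 734.2 and 793 (log2 fold change -0.36, SE 0.184, adjusted p = 0.279), with SS-TAM replicate 1 well under the rest, and 3 of its 8 other probe sets were lower. Under quantile normalization Rps14 and Rpl36 turned to 0.72 (adjusted p = 0.0502) and 0.68 (adjusted p = 0.0405). Rpl34 was at 56.3, 86.5 and 62.9 against 63.2, 69.6 and 69.4 (log2 fold change 0.0016, SE 0.164), and the groups were mixed. Of 4 probe sets that name Rpl34 with other genes, 1 was lower, and their log2 fold changes ran from -1.64 to -1.10. Rpl29 was at 51.2, 40.8 and 38.4 against 37.8, 35.2 and 27.2 (log2 fold change 0.38, SE 0.164, adjusted p = 0.213), with all SS-TAM values above all GCM values by a small margin. Of the 35 probe sets that name Rpl29 with other genes, 34 were lower, from -1.70 to -0.63 over all 35.

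The other 6 genes that did not pass were within 2 times the array median in both groups, where a difference may not be measurable: Rpl30, Rpl12, Rpl39l, Rpl10l, Rps4l and Rpl3l. Rpl30 was at 5.4, 7.3 and 6.4 on SS-TAM arrays and 8.2, 9.7 and 8.8 on GCM arrays (log2 fold change -0.49, adjusted p = 0.0700). All 10 probe sets that name Rpl30 with other genes were lower, from -1.98 to -1.08. Rpl12 was at 7.8, 5.8 and 4.9 against 5.5, 5.5 and 5.9 (log2 fold change 0.10, adjusted p = 0.723). Of 8 probe sets that name Rpl12 with other genes, 7 were lower, and the eighth, which names a small nucleolar RNA beside Rpl12, was at 0.45. For 7 of the 11 genes that were not lower, then, some probe set of the gene was lower, and for Rpl39l, Rpl10l, Rps4l and Rpl3l none was.

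**Figure D3:**
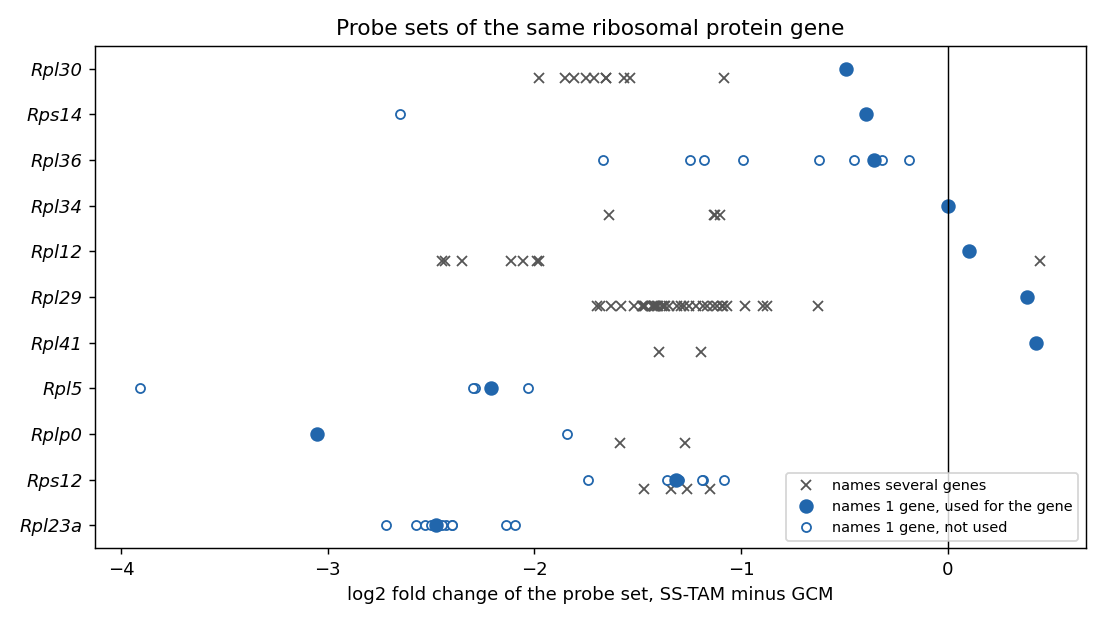
Log2 fold change (SS-TAM minus GCM, horizontal axis) of every probe set of 11 ribosomal protein genes, with the probe set that stands for the gene filled, other probe sets that name 1 gene as open circles, and those that name several genes as crosses. For Rpl30, Rps14, Rpl34, Rpl12 and Rpl29 the filled point lies to the right of most or all others, the crosses of Rpl41 lie at -1.40 and -1.20, while the probe sets of Rpl23a, from -2.72 to -2.10, lie together.

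Paralogues were set beside the gene they resemble. Rpl3l, a form of Rpl3 found mainly in heart and skeletal muscle, was at 4.4, 5.1 and 4.6 on SS-TAM arrays and 4.4, 4.1 and 4.1 on GCM arrays (log2 fold change 0.16, adjusted p = 0.244), whereas a probe set naming Rpl3 with other genes was lower (log2 fold change -1.80). Rpl10l, a retrocopy of Rpl10 used in the testis, was at 2.9, 7.6 and 6.4 against 4.4, 5.1 and 5.2 (log2 fold change 0.09, adjusted p = 0.892), and Rpl10 itself was lower (log2 fold change -1.39). Both paralogues stayed near the array median, so their values describe no more than a low signal. Rpl39l, likewise known from the testis, was at 3.9, 4.4 and 4.2 against 4.4, 4.2 and 4.4, and Rps4l was at 7.1, 9.4 and 10.4 against 8, 8.5 and 7.7, with no separation in either. A probe set naming Rpl39 with 1 other gene stood at -3.26 on the log2 scale, and Rps4x at -1.73 (292.1, 371 and 487.9 on SS-TAM arrays against 1293.7, 1302.3 and 1153.5 on GCM arrays). Of the paralogues, Rps27l and Rpl32l were lower. Rps27l, a p53 target that resembles Rps27, was at 17.5, 14.3 and 19.5 against 65.5, 50.5 and 37.6, 2.94-fold lower (adjusted p = 0.0130). Rps27 was seen only in 2 probe sets shared with Rps27rt, neither of which passed. The one with the highest mean was at 267.4, 535.1 and 429.5 on SS-TAM arrays and 378.9, 653.7 and 535.4 on GCM arrays, with mixed groups (log2 fold change -0.37, adjusted p = 0.481). Rpl32l was at 62.1, 83.3 and 62 against 172.3, 219.8 and 196.6, 2.85-fold lower (adjusted p = 0.00418), beside -2.27 for a probe set that names both Rpl32 and Rpl32l.

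Ribosomal protein genes have many processed pseudogenes of near-identical sequence, and probe sets can therefore share transcripts. Over all 215 probe sets that name 1 of the 59 genes only, 194 were lower, 3 were higher (those of Rpl41) and 18 did not pass, and the values formed 203 distinct rows. The 156 probe sets that were not chosen to stand for a gene held 146 lower ones, with a median log2 fold change of -2.07. Of the 39 genes with more than 1 probe set, all probe sets were lower for 33, some for 4 and none for 2 (Rpl41 and Rps4l). Of 233 probe sets that name a ribosomal protein gene together with other genes, 218 were lower and 0 higher by limma, and their log2 fold changes ran from -3.64 to 0.45. The 4 of these with a positive log2 fold change all name a small nucleolar RNA beside the ribosomal protein gene that hosts it. Of the 16 canonical genes seen only in this way, 14 were lower by the probe set with the highest mean, with a median of -2.13 over the 16. Rpl11 and Rps27 did not pass there, although 4 of the 6 Rpl11 probe sets were lower. Over all their probe sets, 12 of the 16 genes had every one lower, 3 had some and 1 (Rps27) had none. Rpl39, Rpl37 and Rps24 were the lowest of the 16, at -3.26, -3.12 and -2.67. Rpl37 stood at 66, 88.1 and 101.6 on SS-TAM arrays against 726.8, 894.2 and 598 on GCM arrays, and Rps24 at 131.9, 141.8 and 182.8 against 861.5, 1118.2 and 921.5. Both were separated by more than the whole spread of either group. Of 2 canonical genes whose symbols fall outside the rule, Fau, which encodes Rps30 fused to a ubiquitin-like protein, was lower (log2 fold change -1.25, SE 0.180, adjusted p = 0.0132), a call that was lost without GCM replicate 2 or 3 and a value that turned to 0.043 under quantile normalization. The other, Rps3a1, was at 292.2, 434.2 and 469.8 against 439.4, 500.6 and 443.7 (log2 fold change -0.24, adjusted p = 0.456) and turned to 0.88 (adjusted p = 0.00791) under quantile normalization.

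Other genes that serve translation were compared through lists with no ribosomal protein member of the 59. Genes whose mRNAs also start with a TOP tract were mostly lower, 11 of 16 measured by limma with 0 higher (13 lower and 0 higher at an unadjusted p under 0.05) and a median log2 fold change of -1.08. Npm1, a nucleolar chaperone of ribosome assembly, was at 65.3, 64.4 and 82.8 on SS-TAM arrays and 353.3, 369.4 and 247.6 on GCM arrays, 4.53-fold lower (adjusted p = 0.00255). Eif3h, Eef1b2 and Eif3e, an initiation factor subunit, an exchange factor for elongation factor 1A and a second initiation factor subunit, were at -2.16, -1.99 and -1.79 on the log2 scale (adjusted p = 0.00418, 0.00410 and 0.00643). Ribosome biogenesis genes were lower in 9 of 39 cases by limma, with 0 higher (2 at an unadjusted p under 0.05) and a median of -0.34. The largest changes were those of Nop10, a box H/ACA ribonucleoprotein, at -2.25, Npm1, Polr1d, a subunit of RNA polymerases I and III, at -1.99, and Utp3 at -1.98. Genes of nascent chain handling were lower in 5 of 12 cases by limma, with 0 higher (also at an unadjusted p under 0.05) and a median of -0.56, led by Srp9 of the signal recognition particle (-2.67, adjusted p = 0.00148) and Naca, which meets the emerging chain at the tunnel and is also in the TOP list (-1.59, adjusted p = 0.00179). Of the 5, Dnajc2 (-0.65) lost its call in 5 and Sec61b (-0.64) in 6 of the 6 cases with 1 array left out. Sec61b stood at -0.058 under quantile normalization (adjusted p = 0.785).

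Mitochondrial ribosomal protein genes, which build the separate ribosome of mitochondria, were lower in 16 of 77 cases, higher in 1, and had a median log2 fold change of -0.23. Mrps18c, Mrpl42, Mrps21 and Mrps33 had the largest reductions, -2.47, -2.38, -2.12 and -2.03. Mrps18b, named after its value was seen, was the gene that was higher (1.02, adjusted p = 0.0364), and it was at -0.46 under the macrophage marker scaling with its shift of all genes. Calls of Nop10, Utp3, Mrps21 and Mrps33 were lost without 1 or more single arrays, and that of Mrps18b without any single array but SS-TAM replicate 3. Of 18 genes that control ribosome production and growth, Rictor, a subunit of mTORC2, was lower (-0.55, adjusted p = 0.00405) at intensities near the array median. Nfe2l1, a transcription factor of proteasome genes, was higher (0.91, adjusted p = 0.0278), was at -0.56 under that scaling and lost its call in 4 of 6 cases with 1 array left out. The other 16 genes of that list did not pass, and its median was 0.12. Several of the 16 were within 2 times the array median in both groups, where a difference may not be measurable. Examples are Rptor (mean 6.3 in SS-TAMs and 6.1 in GCMs) and Mtor (9.3 and 7.2). Beside these lists, 4.74% of all genes were lower, a share that includes many genes near the array median. In a fit without genes of a mean under 10, 17.6% of 5366 genes were lower. Of the other genes with a mean of 100 or more, 39.9% were lower. A share in a list above 4.74% is therefore not by itself an excess over genes of like intensity. The lists were not tested against these shares or against each other.

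**Figure D4:**
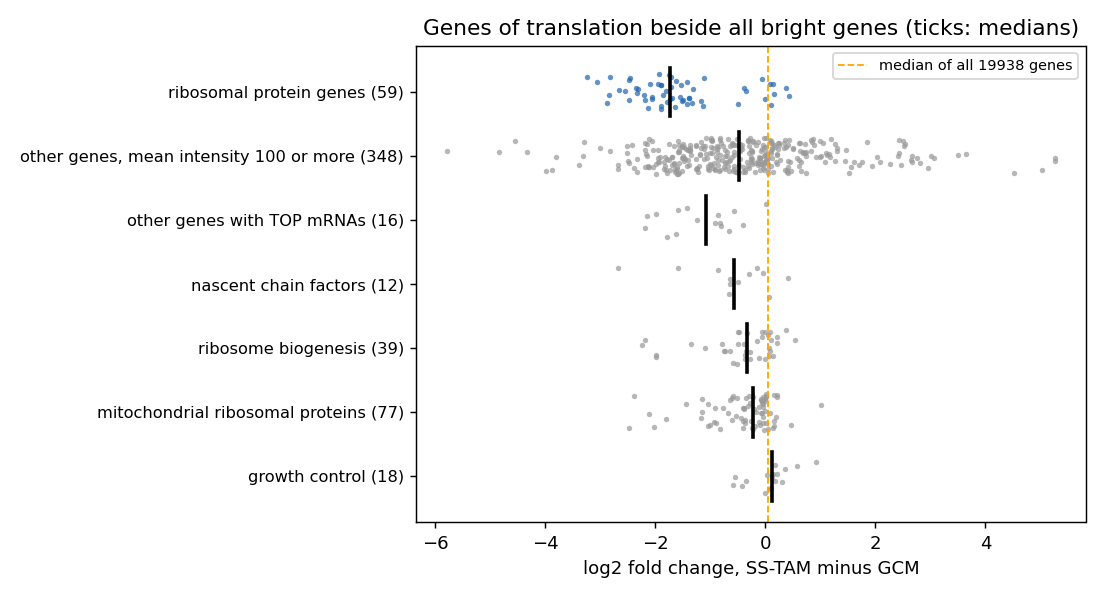
Log2 fold change (SS-TAM minus GCM, horizontal axis) of each gene in 7 groups, with the number of genes in parentheses, a tick at the median of each group and a dashed line at the median of all genes. Medians run from -1.73 for ribosomal protein genes over -1.08 for other TOP mRNA genes to 0.12 for growth control genes, and the points of other genes with a mean of 100 or more spread from -5.79 to 5.26.

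Markers of macrophages and of cells that can neighbor them also moved with the groups. Of 22 measured core macrophage markers 15 were higher and 0 lower by limma (0 lower at an unadjusted p under 0.05 too), and their summed intensity was 4509 to 5696 on SS-TAM arrays against 2098 to 2437 on GCM arrays. C1qa, a complement subunit typical of tissue macrophages, was at 335.7, 222.9 and 278.8 on SS-TAM arrays and 69.6, 89.7 and 87.8 on GCM arrays, well above the array median in both groups. Of 22 T cell markers 11 were lower and 0 higher by limma (0 higher at an unadjusted p under 0.05), with a sum of 265 to 316 on SS-TAM arrays against 1329 to 1758 on GCM arrays. Cd3g, which belongs to the receptor complex of T cells, was at 6.5, 6.2 and 6.3 in SS-TAMs, near the array median, and at 276.2, 411.1 and 376.5 in GCMs. Of 20 B cell markers 2 were lower (Cd79a and Ms4a1), and the sum was 206 to 242 against 287 to 809, with the 809 on GCM replicate 1. On that same array the T cell sum was the lowest of the GCMs (1329), and most ribosomal protein genes were the lowest of the GCMs too. The other arrays did not keep this order. The T cell sum was highest on GCM replicate 3 (1758), but the geometric mean of the ribosomal protein genes was highest on GCM replicate 2 (332). In SS-TAMs the T cell sum was lowest on replicate 2 (265) and that geometric mean on replicate 1 (93.7). Of 19 fibroblast markers 5 were higher, with a sum of 871 to 1626 against 474 to 602, and of 8 erythroid markers 1 was higher. The part of these differences in the ribosomal protein result was not tested.

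The size of the difference depended on how arrays were put on a common scale, and 3 other scalings were tried. Centring on the median and scaling to macrophage markers shift every log2 fold change by a constant (-0.061 and -1.47). Neither could therefore turn the negative median over the 59 genes. Quantile normalization could, and the median stayed negative under it. With each array centred on its median, 49 genes were lower (beside 5.86% of all genes tested) and 1 higher, with a median log2 fold change of -1.79. With quantile normalization, which forces the same distribution on all arrays and so removes the gap at the upper end, 33 were lower (beside 4.28% of all genes tested), 2 were higher (Rpl36 and Rpl41) and the median was -0.82. The 33 hold 32 of the 48 genes and Rpl30 (log2 fold change -0.56, adjusted p = 0.0468). The 16 genes that lost their call there were Rpl6, Rpl10, Rpl19, Rpl21, Rpl23, Rpl24, Rpl27, Rpl27a, Rpl32l, Rpl37a, Rplp1, Rps2, Rps7, Rps18, Rps19 and Rps25, and 14 of them kept a negative value (Rpl37a and Rps18 did not). With each array scaled to its core macrophage markers, all 59 were lower and the median was -3.21, but so were 19645 of 19938 genes (98.5%), because that scaling lowers every gene by the same 1.47 on the log2 scale and moves the median of all genes to -1.43. The count of 59 there is therefore no result about the ribosomal protein genes. Relative to the median of all genes, their median stood at -1.77, which a shift of all genes leaves as it is with the deposited values.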

How the data were processed

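RNA of 1000 laser-captured macrophages per mouse was amplified (NuGEN) and hybridized to Affymetrix Mouse Gene 1.0 arrays, 1 per mouse. The deposited values are linear intensities with 1 decimal for 28944 probe sets, and the authors' processing notes name RMA and limma. For versions, settings and genome build, nothing is stated in the notes or methods used. The deposited arrays do not share 1 distribution, since the top 1% of probe sets began at 241 to 284 in SS-TAMs and 614 to 664 in GCMs. How the 2 groups were normalized against each other is not known. The platform annotation names 1 gene for 21789 probe sets, several for 1621, and 5534 are unnamed here. Without detection calls, a low value does not show absence, and the number of arrays limits the precision.

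Log2 was taken of the deposited values. The groups (3 arrays each) entered lmFit and eBayes of limma 3.58.1 (R 4.3.3) without covariates, and two-sided p-values were adjusted by Benjamini-Hochberg over 19938 genes (threshold 0.05). Fold changes are ratios of geometric means. Probe sets of one gene were compared in a fit over all probe sets. The procedure was tested on simulated data with known changes and independent noise around the mean of each gene. Those data lack the gap at the upper end of the scale, so that test does not bear on it. Named genes are the 8 lowest, the P stalk genes, Rpl5 and Rpl11, paralogues, all genes not lower, and up to 4 called genes of each other list. Other members are described as examples. The members and lists were chosen with earlier results of these data known. No test was run over the members as a set. An exact permutation test of 3 against 3 arrays cannot go below 0.1 and was not used. Promoter sequences are from RefSeq, GRCm38.p6.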

Additional observations from a re-analysis of the deposited data

How the results depend on the processing

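The direction of the median over the 59 genes was the same under every alternative run. Median centring and macrophage marker scaling could not have changed it, since they lower all genes alike. The count of lower genes was 48 and ranged from 33 (quantile normalization) to 59 (macrophage marker scaling, under which 19645 of 19938 genes, 98.5%, were lower). It was 49 with median centring, 48 with dim probe sets left out, with log2(value + 16) and with the highest mean of linear values (an alternative chosen after seeing the data), 50 with the mean of all probe sets of a gene, 46 with array weights, and 62 of 75 when the genes of several-gene probe sets were added. All 48 were lower by at least 2-fold. The count of higher genes moved from 1 to 2 with quantile normalization, to 0 with macrophage marker scaling and to 0 with a trended, robust variance. The median moved from -1.73 to -0.82 with quantile normalization, to -3.21 with macrophage marker scaling and to -1.54 with log2(value + 16). Leaving out 1 array gave 39 to 45 lower genes, 1 higher gene and a median of -1.86 to -1.66. Over all genes, 946 lower and 1028 higher calls fell to 399 and 271 without GCM replicate 2, and to 680 and 837 with array weights.

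Macrophage marker scaling by its construction lowers every log2 fold change by 1.47, so the turns under it say nothing about single genes. With it, Rpl10l turned to -1.38, Rpl12 to -1.37, Rpl29 to -1.09, Rpl34 to -1.47, Rpl3l to -1.31, Rpl41 to -1.04, Rps4l to -1.34, Nfe2l1 to -0.56 and Mrps18b to -0.46. With quantile normalization, Rpl36 turned to 0.68, Rpl37a to 0.20, Rps14 to 0.72, Rps18 to 0.042, Fau to 0.043 and Rps3a1 to 0.88. Rpl34 turned to -0.060 with median centring and -0.0070 with array weights, and Rps4l to -0.090 with the mean of its probe sets. With 1 array left out, Rpl10l ranged from -0.18 to 0.51, Rpl12 from -0.079 to 0.26 and Rpl34 from -0.18 to 0.13. The cause of the changes under the other settings was not tested.

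With a replicate block, 47 ribosomal protein genes were lower (Rpl21 and Rps19 lost their call, Rpl30 gained one) and 1 was higher, with an unchanged median of -1.73, and over all genes 708 were lower and 611 higher. The deviations of same-numbered arrays from their group means correlated at 0.090, 0.087 and 0.019 (replicates 1, 2 and 3), so the numbers were not taken to pair the arrays, although each SS-TAM array correlated best with the GCM array of its own number.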
